A study of Mus musculus with 24 samples.

Results

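Of 10 classical p53 targets of DNA damage, 5 carried a called N6-methyladenosine (m6A) peak in mouse kidney, beside 35.4% of all genes. In the deposited lists each control kidney listed more of these genes, and more genes altogether, than any kidney exposed to cisplatin, and for the 10 targets the separation ended when the lists were cut to equal length. The 10 genes were Cdkn1a, Mdm2, Ccng1, Trp53inp1, Phlda3, Sesn2, Btg2, Plk2, Gdf15 and Eda2r, chosen by name out of 21951 annotated protein-coding genes. A gene was counted as listed in a kidney when a peak overlapped one of its exons by at least 1 bp on the same strand of GRCm38. The lists of 12 kidneys held 91013 peaks, and 25 of them belonged to these genes.

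The kidneys came from male C57BL/6 mice (C57 in the labels) that were 8 weeks old at the start, 4 mice in each of 3 groups. Control mice received saline in place of both compounds, and IG mice received saline in place of berberine. Mice of the injury group (IG) were injected with 20 mg/kg of cisplatin. Mice of the treatment group (TG) were given the same cisplatin dose after 14 days of daily berberine (20 mg/kg), so IG and TG shared cisplatin. Kidneys were taken 72 h after cisplatin, and methylated RNA was measured by MeRIP-seq, in which RNA fragments of about 100 nucleotides are pulled down with an antibody against m6A and sequenced. No group received berberine alone among the kidneys analysed here, so an effect of berberine without cisplatin cannot be told apart from one on the injury. Whole kidney was used, so fewer cells with a transcript, less of the transcript per cell and a smaller methylated share of it cannot be told apart in these lists.

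Cisplatin forms crosslinks in DNA, and the proximal tubule, which takes the drug up, is the part of the kidney it damages most. Damage stabilises the transcription factor p53, which switches on genes that halt the cell cycle, restrain p53 itself, alter metabolism or signal to other cells. m6A is the commonest internal modification of mRNA, is written mostly near stop codons and in 3′ UTRs at sequences of the form RRACH, in which R is A or G and H is A, C or T, and is read by proteins that affect splicing, export, translation and decay of the transcript.

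All 25 peaks of these genes lay in the last exon of the gene, and 22 of 25 held the stop codon. The 25 peaks came from 1 exon of each of the 5 listed targets, counted again in each kidney, so they are not 25 separate observations. The peaks of every listed target but Phlda3 held the stop codon. Among all peaks in protein-coding genes, 28.6% overlapped a last exon and 26.6% held a stop codon. Every member peak began at the 5′ border of its exon and 16 of 25 (64.0%) matched the whole exon, close to the 65.4% of all peaks that equalled an exon, so most of these peaks place a methylated stretch no more finely than an exon, and the other 9 ended 4 to 149 bases short of the exon's end. The stretches below come from the last exons on GRCm38, 5′ to 3′ on the strand of the mRNA, and show where the core motif of an m6A site could lie in the 5 listed targets. The search was for GGACT, which is 1 of the forms of RRACH, on the mRNA strand alone. Each stretch has 29 bases with the motif in capitals, and holds the GGACT nearest to the stop codon or, in Gdf15, whose last exon had 0 copies of GGACT, the nearest RRACH.
Plk2, chr13:110400260-110400288, + strand, 50 bases past the stop codon: gcggacctcatgGGACTcttttccactgt
Sesn2, chr4:132493637-132493665, - strand, 65 bases past the stop codon: tcctctgtgcaaGGACTtctgtgtctgga
Phlda3, chr1:135768872-135768900, + strand, 477 bases past the stop codon: aggacagccactGGACTcagcttgtggag
Mdm2, chr10:117689927-117689955, - strand, 269 bases past the stop codon: ctccgcttggaaGGACTttggaagtgtat
Gdf15, chr8:70629570-70629598, - strand, coding, 41 bases before the end of the stop codon: gtgtgtcactgcAGACTtatgatgacctg
The next pair is from targets with no listed peak, for comparison.
Cdkn1a, chr17:29099837-29099865, + strand, 458 bases past the stop codon: gaaaaatgagtaGGACTttggggtctcct
Eda2r, chrX:97337394-97337422, - strand, 66 bases past the stop codon: ttgcttgttgctGGACTttcctgctcttc
GGACT was thus present in the last exon of every unlisted target and of every listed target but Gdf15. A match is a description of the letters and not a measured site.

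The last exons of the unlisted targets ran from 1384 bases in Cdkn1a to 4670 bases in Trp53inp1 and held 2 to 6 copies of GGACT. The 5 listed targets had last exons of 659 bases in Phlda3, 782 in Gdf15, 812 in Plk2, 1771 in Sesn2 and 1911 in Mdm2, with 0 to 5 copies. Across all genes a longer last exon went with a peak more often, since 14% of genes whose last exon had over 500 and up to 1000 bases carried a peak there in any kidney, against 31.7% for 2000 to 4000 bases. GGACT occurred in 53.7% and 89.5% of these last exons. The 3 targets in the shorter class were all listed and the 3 in the longer class, Ccng1, Btg2 and Eda2r, were not.

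**Figure D1:**
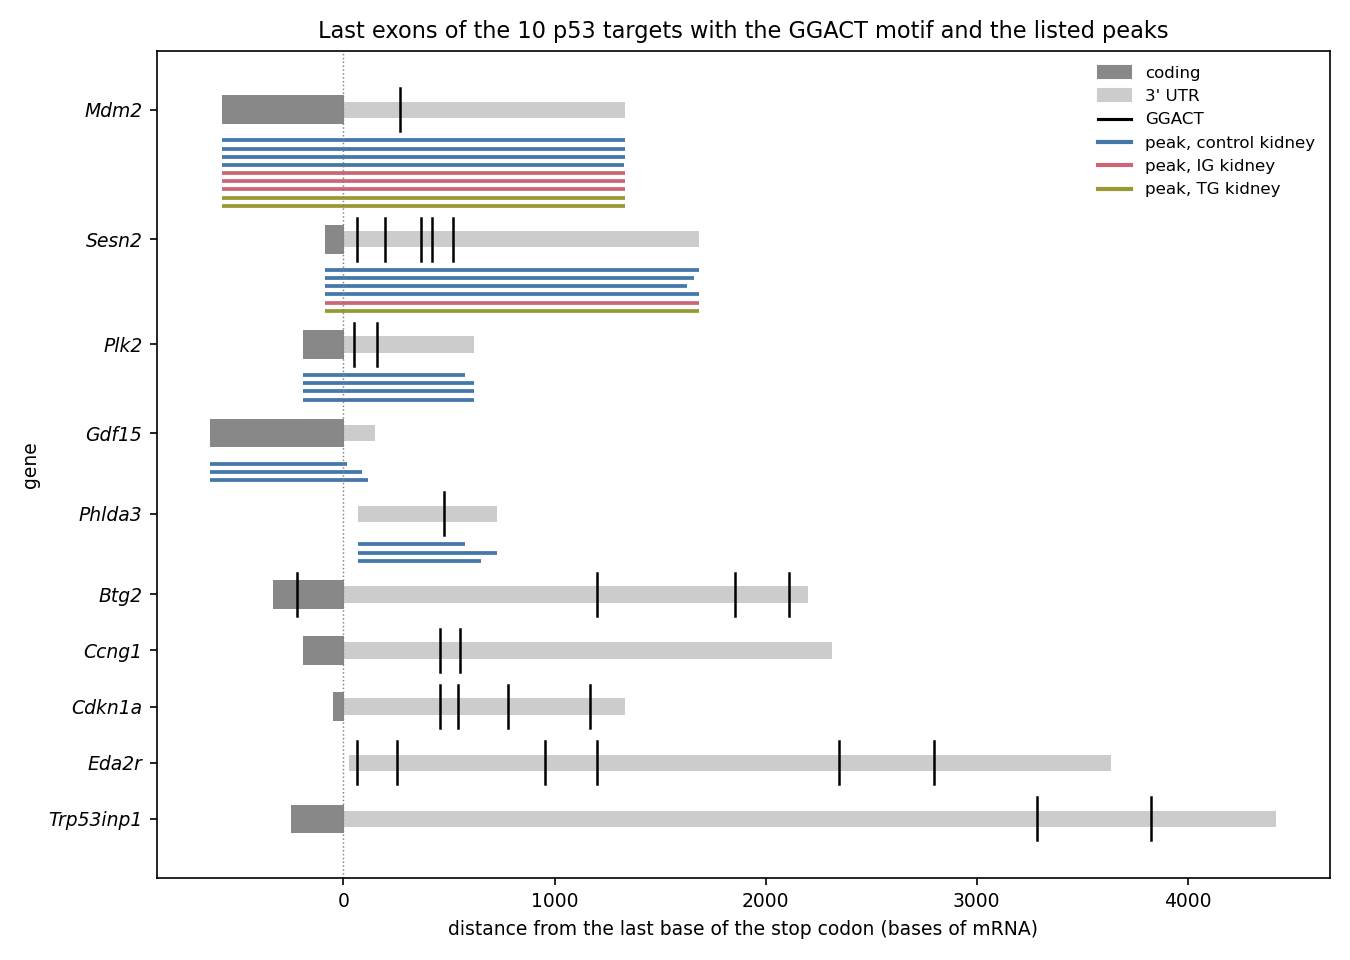
The last exon of each of the 10 p53 targets, drawn to scale in bases of mRNA from the last base of the stop codon, with coding parts dark, 3′ UTR light, GGACT as black ticks and each listed peak as a line coloured by group. All 25 peaks start at the exon's 5′ border, and the 5 genes without a line have no listed peak in any of 12 kidneys.

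Of the 10 targets 5 were listed in at least 1 kidney, beside 7774 of 21951 genes (35.4%). Cdkn1a, the inhibitor of cyclin-dependent kinases known as p21, was listed in 0 of 12 kidneys. So were Ccng1 (cyclin G1), Trp53inp1 (a p53-inducible nuclear protein), Btg2 (an antiproliferative protein that recruits mRNA deadenylase) and Eda2r (a receptor of the TNF receptor family). A missing peak does not show unmethylated RNA or a weak signal. A transcript that is scarce or sequenced thinly gives no call, and the depth of the libraries is unknown because the lists hold no read counts. The highest score of each list lay between 3195 and 3233, and whether stronger peaks were left out of the lists was not tested. Krt20, which holds sites that the paper ranks among the most increased in IG, was in no list.

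Fewer of the targets were listed in each cisplatin-exposed kidney than in each control kidney. The 4 control kidneys listed 5, 5, 4 and 4 of the 10 genes, a mean of 4.50 ± 0.577 (SD, n = 4). The IG kidneys listed 2, 1, 1 and 0 (1.00 ± 0.816, n = 4), and the TG kidneys 2, 1, 0 and 0 (0.750 ± 0.957, n = 4). The groups of control and cisplatin-exposed kidneys did not overlap. The lists as a whole also shortened, from 4966 ± 165 genes in control kidneys to 4378 ± 245 in IG and 3836 ± 231 in TG (SD, n = 4 each), which is 22.6%, 19.9% and 17.5% of annotated genes, and the 12 lists ranged from 5901 to 9579 peaks. When every list was cut to its 5901 highest-scoring peaks, the control kidneys listed 4, 2, 3 and 3 targets (3.00 ± 0.816) and the IG and TG kidneys listed as many as before, so that 1 control kidney then matched the highest IG and TG kidney at 2.

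**Figure D2:**
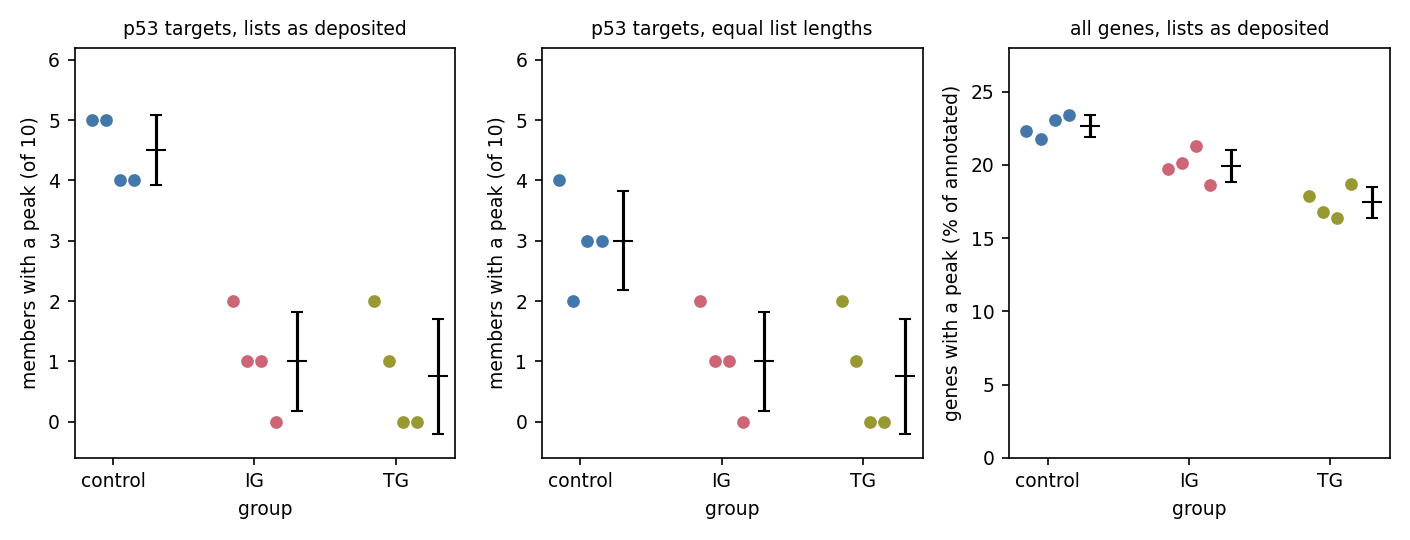
Number of the 10 p53 targets with a listed peak in each kidney for the deposited lists (left) and for lists of equal length (middle), and the percent of all annotated genes with a peak (right), with points for kidneys and bars for mean ± SD of 4. Control kidneys list 4 or 5 targets and cisplatin-exposed kidneys 0 to 2 in the deposited lists, and with equal lengths the groups meet at 2.

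Scores are given as deposited, as −log10 of each peak's p-value multiplied by 10, and the lowest was 13.02. Scores were not normalised between kidneys, so tests used the list percentile, the percent of peaks in the same kidney's list that score no higher, set to 0 where a gene was not listed. For the presence of a peak Fisher's exact test was used, two-sided, in which 4 of 4 against 0 of 4 kidneys is the one outcome under 0.05. Percentiles were tested with a two-sided exact permutation test over all 70 arrangements of 8 kidneys. In both tests the smallest p is 0.0286.

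Plk2, a polo-like kinase that acts in centriole duplication and the stress response, was listed in 4 of 4 control kidneys and in 0 of 8 cisplatin-exposed kidneys. Its control scores were 203.97, 73.50, 34.56 and 102.83. All lay in exon 14 of 14, chr13:110400033-110400844, which holds the stop codon and the 620 bases of 3′ UTR, and both copies of GGACT in it lie in the 3′ UTR. The mean list percentile was 53.2 ± 18.4 (SD, n = 4) in control kidneys and 0 in IG and TG. IG was lower than control in presence and in percentile (exact p = 0.0286 for both), and so was TG (exact p = 0.0286 for both). After Benjamini-Hochberg adjustment over all genes tested with the exact tests neither held: adjusted p = 0.564 for presence and 0.168 for percentile in IG against control, and 0.486 and 0.144 in TG against control. IG and TG were set against the same 4 control kidneys, so the 2 comparisons are not separate evidence. With lists of equal length Plk2 was listed in 3 of 4 control kidneys, and the same count remained when peaks scoring below 71.3, the overall median, were dropped (exact p = 0.143 in each case).

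Phlda3, a pleckstrin homology protein that competes with AKT for membrane phosphoinositides, was listed in control kidneys 1, 2 and 4 with scores of 55.06, 30.36 and 27.86, and in no other kidney. Its peaks lay in exon 2 of 2, chr1:135768478-135769136, which is wholly 3′ UTR because the stop codon is in exon 1. The mean percentile was 22.9 ± 17.7 (SD, n = 4) in control kidneys. Neither presence nor percentile passed the test in IG or TG against control (exact p = 0.143 for each), which is what 3 of 4 against 0 of 4 kidneys gives. Without control kidney 3, the only control kidney that did not list it, the exact p was 0.0286 by construction.

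Gdf15, a secreted cytokine of the TGF-beta family that rises in many kinds of tissue stress, was listed in control kidneys 1, 2 and 3 with scores of 54.33, 15.38 and 46.41. No IG or TG kidney listed it. Its peaks ran from the start of exon 2 of 2 (chr8:70629393-70630174) to 34 to 131 bases before the end of the exon, and 632 of the exon's 782 bases are coding. The mean percentile was 21.5 ± 22 (SD, n = 4) in control kidneys. The exact p was 0.143 for presence and for percentile in IG and in TG against control. Without control kidney 4, the only control kidney that did not list it, the exact p was 0.0286 by construction.

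Sesn2, a stress-inducible sestrin that restrains mTORC1, was listed in all 4 control kidneys, with scores of 13.20, 413.85, 199.06 and 104.95, in 1 IG kidney with 464.76 and in 1 TG kidney with 86.38. The list percentile in that IG kidney, replicate 1, was 86.2, close to the highest of the control kidneys at 86.3, and control kidney 1 lay just above the lowest score of any list. The peaks lay in exon 10 of 10, chr4:132492032-132493802, with 5 copies of GGACT, all in the 3′ UTR. The mean percentile was 55.0 ± 37.9 in control, 21.5 ± 43.1 in IG and 14.1 ± 28.3 in TG (SD, n = 4 each). Presence differed by less than the test can call in either comparison (exact p = 0.143), and so did the percentile (exact p = 0.286 in IG and 0.0571 in TG against control). Without IG kidney 1, or without TG kidney 1, presence reached an exact p of 0.0286. Each was the only kidney of its group that listed Sesn2, so this value was fixed in advance.

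Mdm2, the ubiquitin ligase that p53 induces and that in turn degrades p53, was listed in more cisplatin-exposed kidneys than any other of the targets. It was listed in 4 of 4 control kidneys with scores of 68.52, 18.33, 106.80 and 162.66. In IG the scores were 38.65, 90.85 and 193.68 in kidneys 1 to 3, and in TG they were 254.70 and 73.05 in kidneys 1 and 2. The scores of the groups overlapped. All peaks lay in exon 12 of 12, chr10:117688875-117690785, of which 8 covered the whole exon and 1 ended 4 bases short of it. The mean percentile was 46.9 ± 25.8 in control, 40.6 ± 31.9 in IG and 32.7 ± 39.4 in TG (SD, n = 4 each), and neither IG (difference -6.29, exact p = 0.771) nor TG (difference -14.2, exact p = 0.657) passed the test against control. With 1 kidney left out, the difference between TG and control ranged from -29.7 to -3.28. The sign of the IG difference turned with lists of equal length, where it was 3.34.

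**Figure D3:**
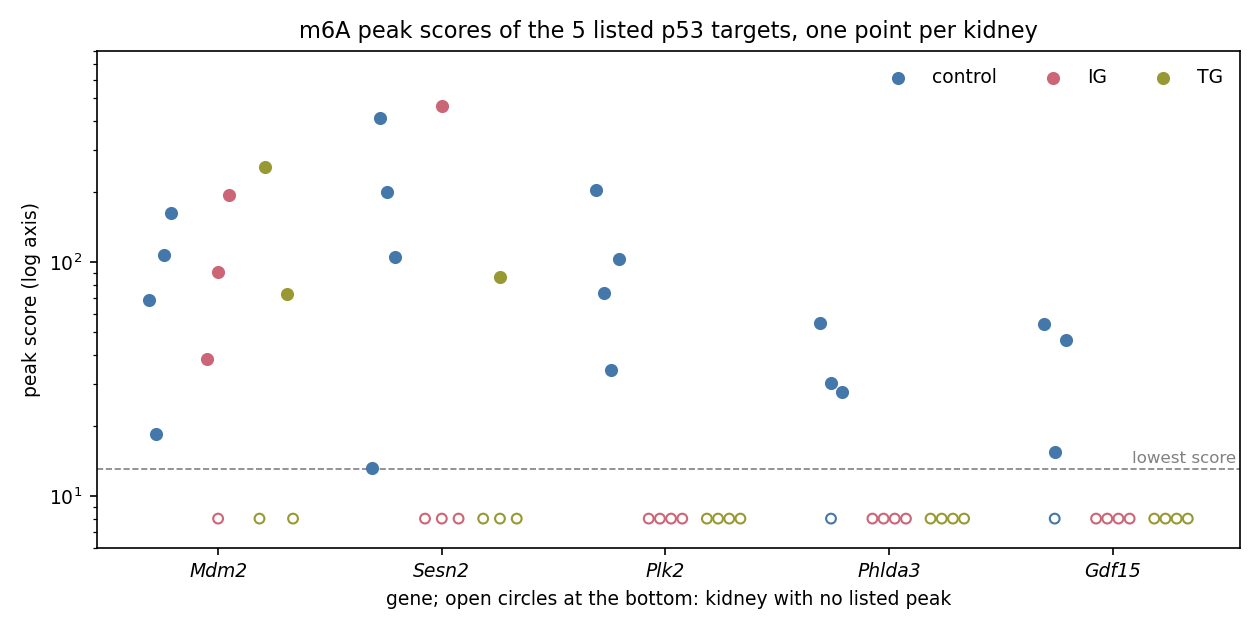
Peak scores (log axis) of the 5 listed p53 targets, one filled point for each kidney with a listed peak and one open circle for each kidney without. Plk2, Phlda3 and Gdf15 have filled points in control kidneys alone, Sesn2 has 1 in IG and 1 in TG, and Mdm2 scores overlap between the groups.

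Counted against the background of all genes, 1 of the 5 listed targets was called by presence and lower in IG than in control, Plk2, where 3.16% of 7526 genes tested were, and 0 of 5 were higher, beside 1.90%. By percentile the count was again 1 of 5 lower, beside 11.5% of all genes, and 0 of 5 higher, beside 5.49%. In TG against control 1 of 5 was lower by presence, beside 4.38% of 7242 genes, and 1 of 5 lower by percentile, beside 15.8%. None of the 5 was higher, beside 1.51% by presence and 4.09% by percentile. Between TG and IG the 2 targets that could be tested were Mdm2 and Sesn2, of which 0 were called, beside 0.255% of 6666 genes higher and 0.510% lower in TG by presence and 1.70% higher and 3.00% lower by percentile. Each listed target held 1 locus of joined peaks, with the same counts of kidneys, so by locus Plk2 was again the 1 of 5 lower in IG, beside 2.73% of 16072 loci, and in TG against control, beside 3.73% of 15169 loci. By locus 0 of 5 were higher, beside 1.35% and 1.00%, and 0 were called in TG against IG, beside 0.217% higher and 0.449% lower of 13367 loci. No gene or locus had an adjusted p under 0.05 in any of these exact tests, where 381 genes (IG against control), 51 (TG against IG) and 426 (TG against control) had an unadjusted p under 0.05 for presence, and 1279, 313 and 1441 for percentile, and 655, 89 and 718 loci did. The presence counts rose in every comparison when any 1 kidney was left out, as a call then needs 1 kidney fewer. They reached 440 to 492 genes and 792 to 854 loci in IG against control. In TG against control they reached 492 to 571 genes and 852 to 960 loci. In TG against IG they reached 74 to 89 genes and 136 to 175 loci, a rise of over 1.5 times in each case but the 74 genes without IG kidney 2. The balance of these calls moved with list length. Of the genes called by presence 37.5% were higher in IG than in control, and 52.7% when the lists had equal lengths, and for TG against control 25.6% and 55.4%, and for TG against IG 33.3% and 72.1%. By percentile the shares were 32.3% and 50.4%, 20.5% and 52.2%, and 36.1% and 67.1%, and by locus 33.1% and 50.4%, 21.2% and 54.7%, and 32.6% and 65.9%.

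In the deposited lists all 5 listed targets were in fewer IG lists and fewer TG lists than control lists. Among the 4506 genes in 3 or 4 control lists, 34.9% had fewer lists in both. With equal list lengths Mdm2 was in 3 control and 3 IG lists, and 4 of 5 targets were in fewer IG lists and 5 of 5 in fewer TG lists, but Phlda3 was then in 1 and Gdf15 in 2 control lists. Of the 3301 genes then in 3 or 4 control lists, 27.0% had fewer lists in both. With scores at or above the overall median, Phlda3 and Gdf15 were in no list and Mdm2 was in 2 lists of each group. Then 2 of the 3 targets still listed, Plk2 and Sesn2, were in fewer IG and fewer TG lists, and 39.9% of 2684 genes had fewer lists in both. Plk2, Phlda3 and Gdf15 were absent from every IG and TG list, as were 7.19% of those 4506 genes. The median difference in percentile of the targets was -22.9 in IG against control (n = 5) and -22.9 in TG against control (n = 5), beside -3.23 and -6.90 for all genes tested. Plk2, Phlda3 and Gdf15, listed in control kidneys alone, could only give a negative difference, which fixes the sign of these medians. All genes tested also include genes listed in IG or TG alone. With equal list lengths the median of the targets was -5.24 in both comparisons, with Mdm2 positive in both, beside 0.208 and 0.0360 for all genes. With scores at or above the overall median it was -17.4 and -17.5 (n = 3), beside -4.11 and -7.43. In TG against IG it was -7.65 for the 2 testable targets and -3.26 for all genes. The targets were picked by name with earlier results of these data known, so these values are a description, with no test over the set.

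**Figure D4:**
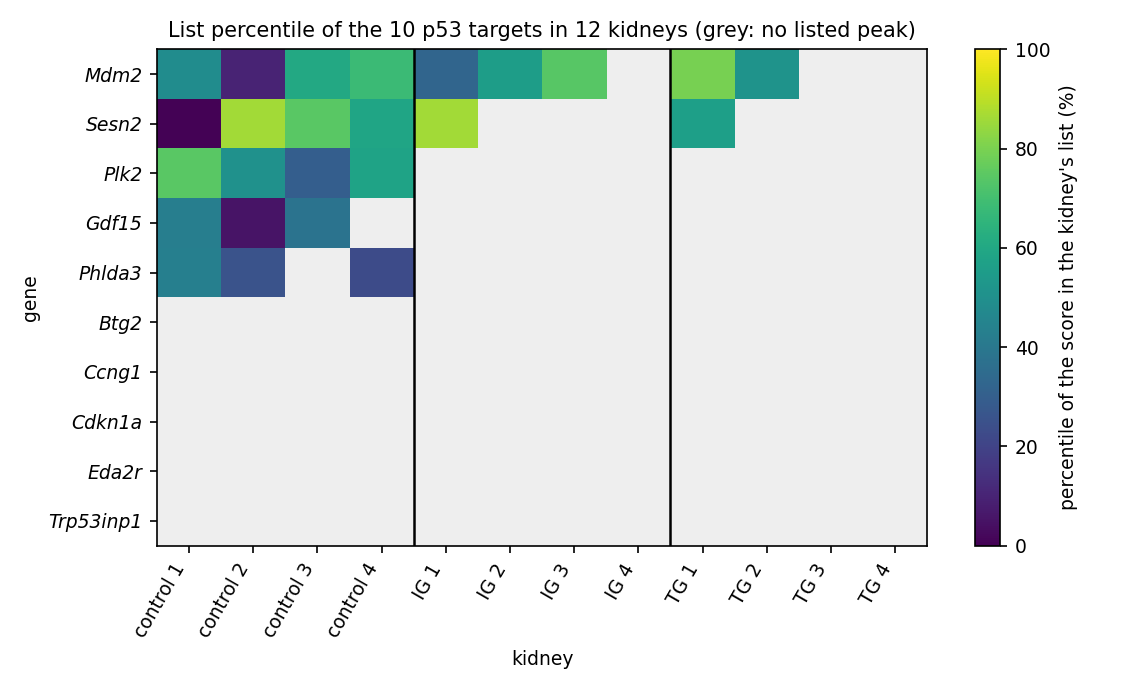
List percentile (colour, 0 to 100%) of each of the 10 p53 targets in each of 12 kidneys, with grey for no listed peak and black lines between groups. The coloured cells number 18 in control, 4 in IG and 3 in TG kidneys, and the lower 5 rows are grey throughout.

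Genes with percentiles most like those of Plk2 over the 12 kidneys were Sema4b and Smim10l2a, which differed from it by 1.92 and 2.48 percentile points on average and were also listed in 4, 0 and 0 kidneys of control, IG and TG. Sesn2 was followed by Bmi1 and Dusp18 (10.1 and 11.5 points), each in 3, 1 and 1 kidneys. Phlda3 was followed by Srxn1 and Sp2 (1.05 and 1.27 points), in 3 and 4 control kidneys and no other. The pattern of Plk2 was shared by 157 genes in all, itself included, or 4.43% of the 3547 genes in all 4 control lists.

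A wider list of 55 p53 pathway genes, made up of regulators of p53 and other targets, is given beside them. The annotation held 54 of them (Ptprv was not matched) and 29 were listed, 22 in at least 1 control kidney, 26 in IG and 20 in TG. In IG against control 1 rose and 1 fell of 29 tested by presence, beside 1.90% and 3.16% of all genes, and 1 rose and 1 fell by percentile, beside 5.49% and 11.5%. In TG against IG none passed by presence, and 2 of 26 fell by percentile, beside 3.00% of all genes. In TG against control 2 rose and 2 fell of 28 by presence, beside 1.51% and 4.38%, and 3 rose and 5 fell by percentile, beside 4.09% and 15.8%. With equal list lengths the counts in TG against control were 2 higher and 0 lower by presence, where 165 and 133 of all 6156 genes were, and 5 higher and 1 lower by percentile, where 509 and 466 were. In IG against control they were 1 higher and 0 lower by presence, where 146 and 131 of all 6171 genes were, and 2 higher and 0 lower by percentile, where 470 and 462 were. The adjusted p of each call equalled that of Plk2 in the same exact test, and was 0.608 by percentile in TG against IG. The median difference in percentile was 1.26 in IG against control, -9.28 in TG against IG and -3.52 in TG against control, and 4.79, -3.11 and 2.36 with equal list lengths.

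Ckap2, a cytoskeleton-associated protein of the mitotic spindle, was the one pathway gene called higher in IG. No control kidney listed it, the IG scores were 68.98, 37.01, 47.23 and 108.77, and the TG scores were 41.64, 28.10, 73.54 and 66.20, so that all 8 cisplatin-exposed kidneys and no control kidney carried the peak (exact p = 0.0286 for IG and for TG against control). Thbs1, the matrix protein thrombospondin 1, had the reverse pattern, with control scores of 72.22, 54.31, 53.01 and 21.82 and no peak in the other 8 kidneys (exact p = 0.0286 in both comparisons). With equal list lengths Thbs1 was not called (exact p = 0.143). With scores at or above the overall median neither Ckap2 nor Thbs1 was called in either comparison (exact p = 1.00).

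Among regulators of p53, Atr, the kinase that responds to stalled replication forks, was in no control kidney, in 3 IG kidneys with scores of 62.27, 35.20 and 161.08 and in all 4 TG kidneys with 59.22, 45.17, 33.94 and 41.44. TG was higher than control (exact p = 0.0286), and IG against control gave exact p = 0.143. With scores at or above the overall median the difference for Atr in TG against control was 0 (exact p = 1.00). Ppm1d, the phosphatase that switches p53 signalling off, was listed in all 12 kidneys, with scores of 149.28, 119.10, 348.26 and 392.52 in control, 144.27, 146.55, 112.65 and 95.40 in IG and 44.61, 26.57, 49.94 and 28.85 in TG. Every TG score was below every IG and control score. Its mean percentile was 74.7 ± 11 in control, 63.2 ± 4.30 in IG and 31.8 ± 10.1 in TG (SD, n = 4 each), lower in TG than in IG and than in control (exact p = 0.0286 for both). Hipk2, a kinase that phosphorylates p53, was also listed in all 12 kidneys and had a mean percentile of 84.0 ± 7.64 in control, 63.7 ± 28.7 in IG and 49.9 ± 17.6 in TG (SD, n = 4 each), lower in TG than in control (exact p = 0.0286). With equal list lengths the difference for Hipk2 was not called (exact p = 0.0571).

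Among the targets, Gadd45b, a stress sensor of the Gadd45 family, was listed in 4 control kidneys, 1 IG kidney and no TG kidney, with control scores of 45.50, 42.65, 65.00 and 17.07 (exact p = 0.0286 for TG against control, 0.143 with equal list lengths and 1.00 with scores at or above the overall median). Sfn, the 14-3-3 sigma protein of the G2 checkpoint, was listed in all 12 kidneys and rose from a mean percentile of 65.6 ± 14.4 in control to 96.1 ± 3.41 in TG (SD, n = 4 each, exact p = 0.0286), with 90.6 ± 11.6 in IG (exact p = 0.0857 against control). Sesn1, a sestrin like Sesn2, had scores of 33.97, 30.56, 18.94 and 107.80 in control, 72.90, 125.12, 298.21 and 73.88 in IG and 14.75, 48.46 and 13.72 in TG kidneys 1, 3 and 4. Every IG score was above every TG score. Its mean percentile was 61.5 ± 14.4 in IG and 11.8 ± 19.8 in TG (SD, n = 4 each), lower in TG (exact p = 0.0286, and 0.0571 with equal list lengths). Sesn1 was listed in all 4 IG kidneys where Sesn2 was listed in 1. Ephx1, an epoxide hydrolase, fell from 42.1 ± 12 in control to 8.28 ± 11.1 in TG (SD, n = 4 each, exact p = 0.0286, 0.200 with equal list lengths and 0.429 with scores at or above the overall median).

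**Figure D5:**
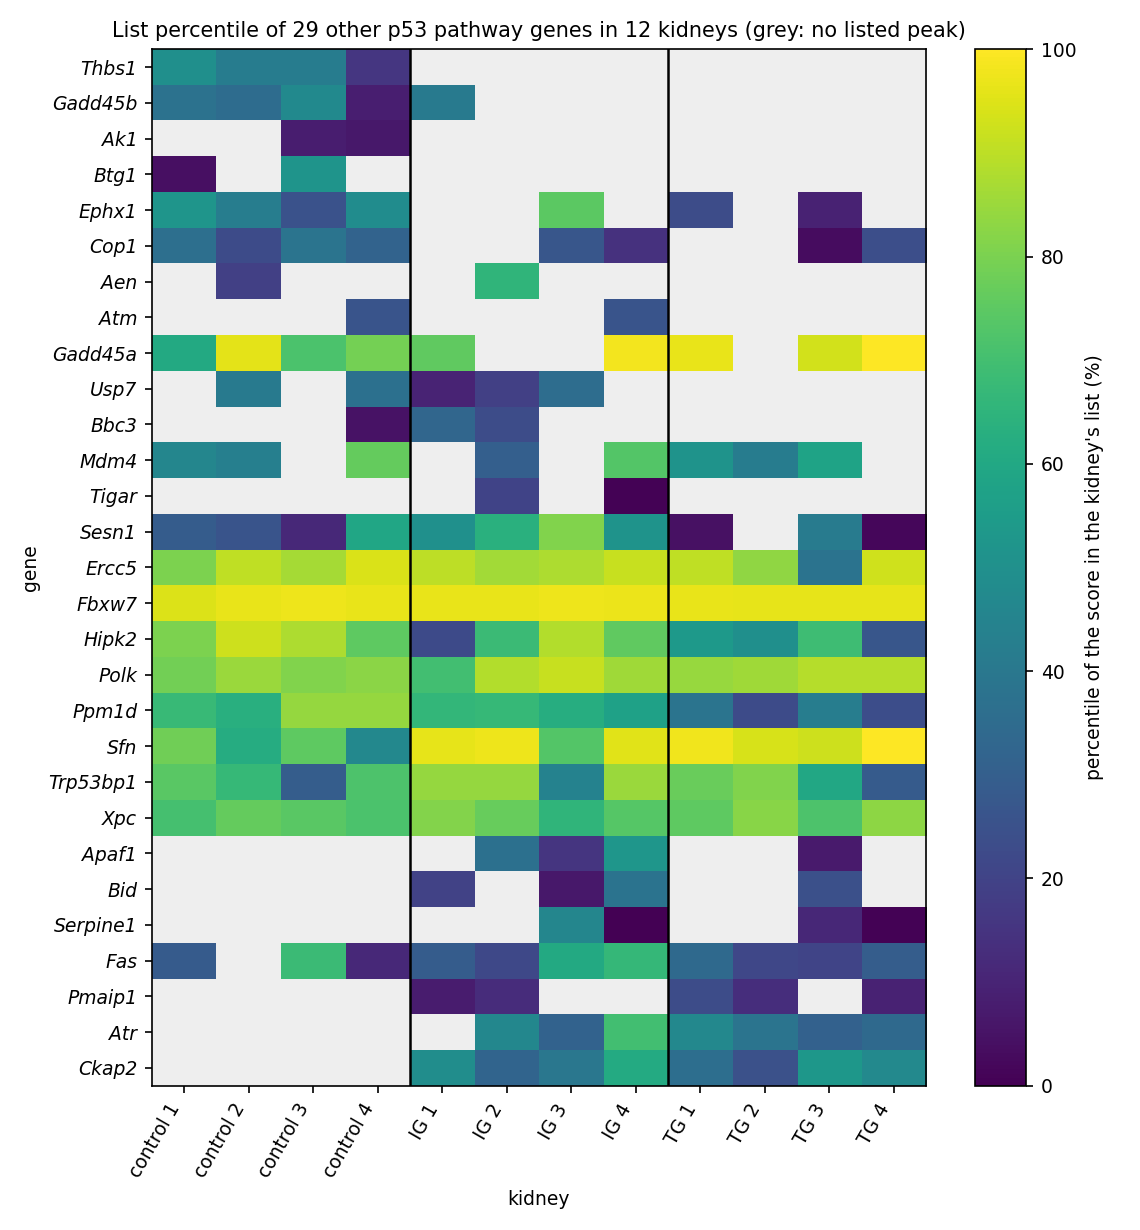
List percentile (colour, 0 to 100%) of the 29 listed genes of the p53 pathway list in each of 12 kidneys, with grey for no listed peak and black lines between groups. Genes listed mainly in control kidneys, such as Thbs1, are at the top, genes listed in all 12 kidneys, such as Ppm1d and Sfn, in the middle, and genes listed mainly in cisplatin-exposed kidneys, such as Atr and Ckap2, at the bottom.

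Markers of cell types gave the following in the same lists. Havcr1 and Sox9, genes of injured tubules, were in no control kidney, in 4 and 4 IG kidneys and in 3 and 4 TG kidneys, and Lcn2 and Krt20 were in none, so 2 of the 4 markers of injured tubule were listed. Itgam, of macrophages and leukocytes, was in 0, 4 and 4 kidneys of control, IG and TG, Ptprc in 1 control kidney, and Cd68 and Adgre1 in none. Of 5 proximal tubule genes Lrp2, Slc34a1 and Slc5a2 were listed in no kidney and Cubn and Slc22a6 in 1 TG kidney each, so the lists cannot check the tissue by its main cell type. Of these Havcr1 was called higher in IG, and Sox9 and Itgam in IG and in TG (exact p = 0.0286 by presence and percentile). Pecam1 and Cdh5 of the endothelium were in all 12 kidneys, Flt1 in 4, 2 and 1 and Kdr in none. The mean percentile of Pecam1 was 90.1 ± 1.25 in control, 78.6 ± 4.76 in IG and 62.8 ± 19.5 in TG (SD, n = 4 each), lower than control in IG and in TG (exact p = 0.0286), and that of Cdh5 was 97.8 ± 0.80 in control and 93.5 ± 1.52 in TG (SD, n = 4 each, exact p = 0.0286), with exact p = 0.0571 for IG. The podocyte genes Nphs1, Podxl and Synpo were in 1, 4 and 2, in 4, 2 and 4 and in 3, 0 and 1 kidneys. Podxl fell from a mean percentile of 94.1 ± 4.39 in control to 19.9 ± 27.7 in IG (SD, n = 4 each, exact p = 0.0286). Of the thick ascending limb Slc12a1 was in 1, 4 and 0, lower in TG than in IG (exact p = 0.0286), Kcnj1 in 1, 2 and 3 and Umod in none. For Slc12a1 the paper reports the opposite from its own test of sites, with less methylation in IG than in control and more in TG than in IG. The part of cell composition in the values of the p53 targets was not tested.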

How the data were processed

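MeRIP-seq peak lists of 12 kidneys (4 control, 4 IG, 4 TG) were used. The authors trimmed reads with cutadapt 1.9.3, aligned them with HISAT2 2.0.4 to mm10 (GRCm38), called peaks per kidney with MACS and kept peaks on mRNA exons. Tools and versions are those of the submitters' processing notes, and the MACS version and threshold are not given in the sources used here. The score of each peak, as the authors deposited it, is 10 times the negative log10 of its p-value and is not normalised between kidneys. Read depth is unknown, so no counting interval can be given and 4 kidneys per group set the precision. Input libraries were not analysed here.

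The GENCODE annotation of GRCm38 gave 21951 protein-coding genes. Presence was compared by two-sided Fisher's exact tests per gene and per locus (peaks joined on a strand where they overlap by at least 1 bp, 16815 loci), and list percentiles by two-sided exact permutation tests, each adjusted by the Benjamini-Hochberg method over all features tested. The member genes, the pathway list and the cell type markers were chosen with earlier results of these data known, and the values of some listed genes are not reported here. Named beyond the members were pathway genes called in any comparison (at most 12) and, for the 3 members with the largest difference between IG and control, the 2 genes most alike in percentile. Genes named under other observations lie outside this rule. Same-numbered kidneys did not deviate together. Scripts were tested on simulated data. The software was Python 3.11.15 with matplotlib 3.10.9, pysam 0.24.0, scipy 1.17.1 and numpy 2.4.6.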

Additional observations from a re-analysis of the deposited data

Results flagged for a closer look

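Sesn2 stood out in both cisplatin-exposed groups because 1 kidney of each lay apart from the other 3. In IG it was listed in kidney 1 alone, with a score of 464.76, and the gap to the others was 1.00 of the range of the group's list percentiles. In TG it was again kidney 1 alone, with a score of 86.38 and a gap of 1.00 of the range. Both passed Dixon's 95% limit for 4 values, which chance passes in about 1 of 20 groups. A listed target had unequal values in 9 groups, of which these 2 passed, and the number of targets per kidney passed in none of the 3 groups. A gene listed in 1 of 4 kidneys passes by construction, because the other 3 percentiles are all 0.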

How the results depend on the processing

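The calls of the p53 targets turned on Plk2. With lists of equal length, and with scores at or above the median, 0 targets were called by gene, by locus or by percentile in IG and in TG against control, where 1 had been. The replicate number as a block gave 0 calls for the targets, the pathway list and all genes, since its smallest p is 0.125, and same-numbered kidneys correlated between -0.037 and 0.104 in their deviations, with 1 of the 12 pairs over 0.1. Leaving out 1 kidney gave 1.00 to 2.00 targets by gene and by locus and 0 to 2.00 by percentile in each of these comparisons. The added calls were Phlda3 without control kidney 3, Gdf15 without control kidney 4, and, by gene and locus, Sesn2 without IG kidney 1 or TG kidney 1. In each case the kidney left out was the only one of its group that departed from the others, so these calls were fixed in advance. The lost percentile call was Plk2 at exact p = 0.0571 without any 1 of the IG or TG kidneys, its difference still -53.2. In groups of 4 and 3, placing the 3 highest control kidneys in the group of 3 gives a difference at least as large, so a second arrangement counts. The mean number of targets per control kidney moved from 4.50 to 3.00 with equal list lengths and 2.00 with scores at or above the median.

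The Mdm2 difference in percentile changed sign to 3.34 (IG against control) and 3.22 (TG against control) with equal list lengths. In IG against control it also changed sign to 0.823 without control kidney 4 and 7.24 without IG kidney 4. In TG against IG the score as deposited gave 1.14, in score units and not in percentile points. The difference in percentile there changed sign to 3.24 without IG kidney 3 and 3.01 without TG kidney 3 or 4. Without 1 kidney the Mdm2 difference ranged from -18.5 to 7.24 in IG against control, from -29.7 to -3.28 in TG against control and from -23.4 to 3.24 in TG against IG, and the Sesn2 difference in TG against IG from -21.5 to 14.1, changing sign without IG kidney 1. The cause was not tested.

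For the pathway list, equal list lengths gave 1 call by presence in IG against control (higher), 2 in TG against control (both higher) and 1 by percentile in TG against IG (lower). By percentile they gave 2 calls in IG against control, both higher, where 470 of 6171 genes were higher in all, and 6 in TG against control, 5 of them higher, where 509 of 6156 were. Scores at or above the median gave 0 by presence and by percentile in IG against control, 2 by presence in TG against IG, and 1 by presence and 3 by percentile in TG against control. Without 1 kidney the counts were 2.00 to 5.00 by presence and 1.00 to 4.00 by percentile in IG against control, 0 to 1.00 and 1.00 to 3.00 in TG against IG, and 4.00 to 5.00 and 4.00 to 7 in TG against control. The highest count by presence in IG against control, 5, came without IG kidney 1. By percentile in IG against control 4 came without IG kidney 3 and 1 without IG kidney 4. In TG against IG 1 by presence came without IG kidney 4, and 1 by percentile without IG kidney 2 or 3. In TG against control 4 by percentile came without TG kidney 1, and 5 without TG kidney 2 or 4, where 8 had been called. For all genes, scores at or above the median gave 213, 30 and 256 calls by presence (381, 51 and 426 in the deposited lists) and 758, 183 and 877 by percentile (1279, 313 and 1441), over fewer genes tested. By locus they gave 346, 51 and 386 (655, 89 and 718), and equal lengths gave 446 in TG against control. Calls shared between settings were not counted.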

Other observations

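Some genes of DNA repair were listed in every kidney of every group. Xpc and Ercc5 of nucleotide excision repair and the translesion polymerase Polk were listed in all 12 kidneys, and Ddb2, Rrm2b and Pcna in none. The mean percentile of Xpc was 73.1 ± 2.54 in control, 74.4 ± 6.72 in IG and 78.1 ± 5.34 in TG (SD, n = 4 each), and that of Polk 81.9 ± 2.53, 83.9 ± 9.83 and 87 ± 2.17. Neither passed the exact permutation test in any comparison (lowest exact p = 0.0571, for Polk in TG against control). Fbxw7, a ubiquitin ligase subunit, was also in all 12 lists and had mean percentiles of 96.3 ± 1.16, 97.0 ± 0.346 and 96.4 ± 0.288.

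Of the apoptosis genes in the pathway list 7 were listed, 3 of them in at least 1 control kidney, 7 in IG and 5 in TG. Apaf1 and Bid were each listed in 0 control, 3 IG and 1 TG kidneys, with scores of 16.17 to 77.35 and 15.57 to 44.18 (exact p = 0.143 in IG against control and 0.486 in TG against IG for presence). Fas was in 3, 4 and 4 kidneys of control, IG and TG, Pmaip1 in 0, 2 and 3, Bbc3 in 1, 2 and 0 and Aen in 1, 1 and 0, and Ckap2 is described above. Bax, Perp and Zmat3 were in none. Apart from Ckap2, none of these passed a test. Apart from Ckap2, the genes of these paragraphs lie outside the naming rule and were chosen after their values were seen.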
